A study of Mus musculus with 10 samples.

Results

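The comparison set 4 gallbladders of Sox17+/- mouse embryos against 4 of wild type embryos, 8 of the 10 samples of the series. They were chosen by their titles, and the 2 wild type cystic duct samples were left out before any value was scaled. Each genotype had 2 samples of ICR, an outbred stock, and 2 of C57BL/6 (B6), an inbred strain, all taken at 15 days post coitum (dpc), and strain entered the fit as a block. The labels name no allele, promoter, pooling, sex or litter, so the p-values measure the spread between these samples, and the altered part of Sox17 is not known here. Whole dissected organs were measured on Affymetrix arrays. In bulk tissue of this kind, fewer cells of a type and less RNA per cell cannot be told apart.

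The gallbladder and cystic duct grow from the ventral foregut endoderm next to the liver and the ventral pancreas. SOX17, a transcription factor of the SoxF family, marks the endoderm that becomes the extrahepatic bile ducts and gallbladder, and mice with a single working copy are known for gallbladder and bile duct defects. The gallbladder wall holds a simple epithelium inside a sleeve of mesenchyme and smooth muscle. Hedgehog ligands such as Shh pass from gut epithelium to that mesenchyme, where the receptor Ptch1 and the Gli factors read them, and Hhip, a target of the pathway, binds and restrains the ligands.

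Markers of epithelium and smooth muscle were read in the dissected tissue. All 8 epithelial markers, among them the adhesion molecule Epcam and the keratins Krt8, Krt18 and Krt19, were measured above the filter level, with mean log2 signals of 7.80 to 11.87. All 5 smooth muscle markers were too, from 8.5 for the calponin Cnn1 to 13.86 for the actin Acta2. The filter leaves out only genes under the 30th percentile, so most genes pass it. Whether these markers tell gallbladder from cystic duct was not tested. Replicates correlated at r = 0.953 to 0.995 across 12735 genes. The lowest value belonged to the ICR wild type pair, in which 612 genes differed by over 1 log2 unit. In ICR wild type replicate 1, 466 genes lay over 1 log2 unit below all 7 other gallbladders, against 34 or fewer in any other sample. In B6 Sox17+/- replicate 3, 15 genes lay over 1 log2 unit above all others. The Gapdh probe sets at the 3' end exceeded those at the 5' end, a sign of RNA quality, by 0.43 to 0.93 log2 in ICR and 0.00 to 0.30 in B6, with a range of 0.00 to 0.93 in wild type and 0.21 to 0.60 in Sox17+/- samples.

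With strain as a block, 75 of 12735 tested genes (0.589%) passed in Sox17+/- gallbladder, 45 lower (0.353%) and 30 higher (0.236%), at a Benjamini-Hochberg adjusted p under 0.05 in limma. The falls were led by Cited1, a transcriptional coregulator, and Shh, each lower by over 8-fold, and the rises by the stomach protease gene Cym. Falls ran from -3.11 to -0.46 log2 with a median of -1.04, and rises from 0.39 to 2.88 with a median of 1.12. Of the 75, 24 fell and 16 rose by at least 1 log2 unit, a size reached by 0.982% of all genes. They lay on 20 chromosomes, with at most 7 on any, chromosome 7, which holds 9.33% of them and 7.71% of the genes tested. Both genotype means lay above the filter level for 67 of them. In 7 that fell (Pmch, Cyp2f2, S100g, Jakmip2, Cyp4x1, Esyt3 and Frmd5) and 1 that rose (Pnliprp1), the mean of the lower genotype was under it. These 8 passed the filter through the genotype in which they were high, and the size of their change rests on a dim signal in the other.

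A gene was taken as changed alike when it passed, when both Sox17+/- samples lay on the same side of both wild type samples within each strain, and when the smaller strain change was at least 0.5 of the larger. All 75 met this. Separation of the samples the same way in both strains was itself seen in 1463 genes (11.5%; 6.53% lower and 4.95% higher), and with the ratio added in 867 (6.81%). The fit holds a single genotype effect, so a gene that changed by different amounts in the strains has a larger residual and passes less easily. With a separate mean for each strain and genotype 67 genes passed and 53 were changed alike. Over the 75, the smaller strain change was 0.55 to 1.00 of the larger, with a median of 0.81. The change was larger in ICR for 46 and larger in B6 for 29. In 70 of the 75 no Sox17+/- value overlapped a wild type value over all 8 samples. The other 5 (Fhod3, Ntm, Lpl, Vnn1 and Pnliprp1) overlapped between strains. The 75 were chosen by p on these same values, which favours such a gap. The share without overlap over all genes is not given here, so the 70 are a description. Levels in wild type and Sox17+/- together differed between B6 and ICR for 13 of the 75, against 9.64% of all genes.

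**Figure D1:**
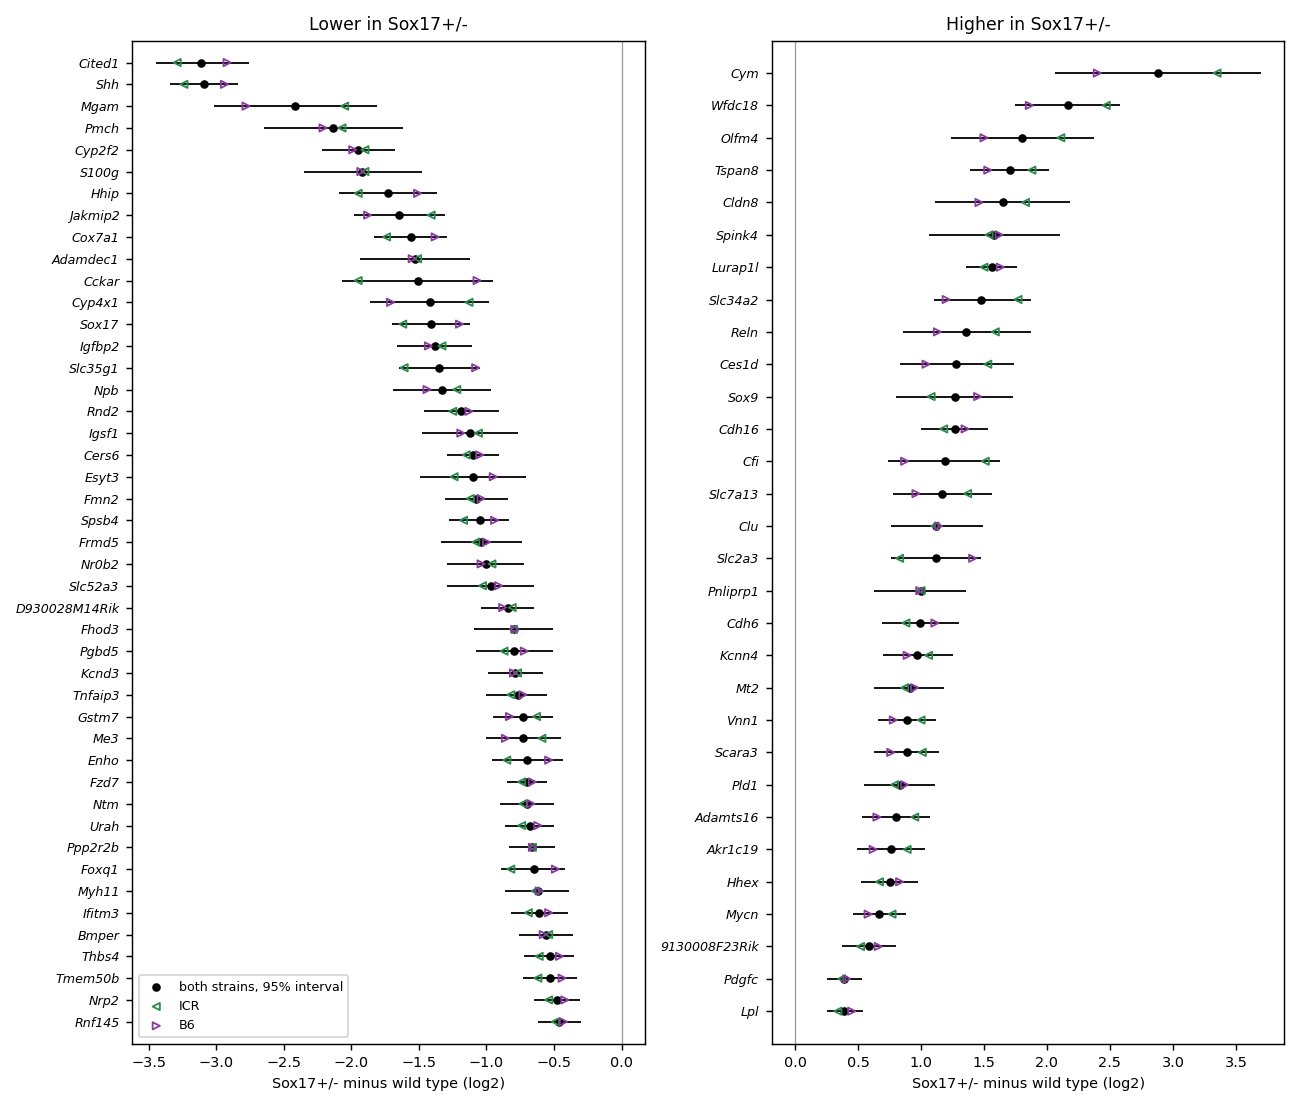
Change of each of the 75 genes, Sox17+/- minus wild type in log2 units, over both strains (black points with 95% intervals) and in ICR (left-pointing triangles) and B6 (right-pointing triangles). No interval reaches 0, which follows from the threshold. The 2 strain values lie on the same side of 0 for every gene drawn, which the rule for changed alike requires.

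The difference between the strains was tested directly. For 0 of 12735 genes did the Sox17+/- change in B6 differ from that in ICR (0%, limma, smallest adjusted p = 0.822), while 705 genes (5.54%) had an unadjusted p under 0.05. Among the 75, the sole gene at an unadjusted p under 0.05 was Slc35g1, a solute carrier, with -1.61 log2 in ICR and -1.08 in B6. A p that misses the threshold does not show that the strains act alike. This count rested on ICR wild type replicate 2: without it, when replicate 1 stood alone for its group, 559 genes passed, of which 554 had the lower change in B6. It was 1 without ICR wild type replicate 1 and 1 without B6 Sox17+/- replicate 4.

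Across all 12735 genes the ICR and B6 changes correlated at Pearson r = 0.29 and a Spearman coefficient of 0.19, and at 0.20 and 0.18 over the genes that were not called. Genes are not independent replicates, and the strains share no sample. In ICR 465 genes changed by at least 1 log2 unit and 261 of them (56.1%) had the same direction in B6. In B6 62 did so, and 59 of them (95.2%) had the same direction in ICR. Over all genes 54.6% had the same direction in both. These counts take in ICR wild type replicate 1, where 466 genes lay over 1 log2 unit below all other gallbladders. A low value there makes the ICR change of a gene more positive. The counts without that sample are not given here, so 465 against 62 does not show a broader response in ICR. A change of at least 1 log2 unit the same way in both strains was seen in 38 genes, 38 of 465 in ICR and 38 of 62 in B6, and in 0 genes it went opposite ways. Of the 38, 33 were called. The other 5 were Tmem45b (1.12, SE 0.19), the matrix proteoglycan Nepn (-1.80, SE 0.33), the muscle troponin Tnnc2 (2.03, SE 0.68), Igfbp1 (1.53, SE 0.51) and the erythroid factor Klf1 (1.11, SE 0.40), with limma adjusted p of 0.0534 to 0.405. Without ICR wild type replicate 1 and B6 Sox17+/- replicate 3 the correlation was 0.40 (Pearson) and 0.21 (Spearman).

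**Figure D2:**
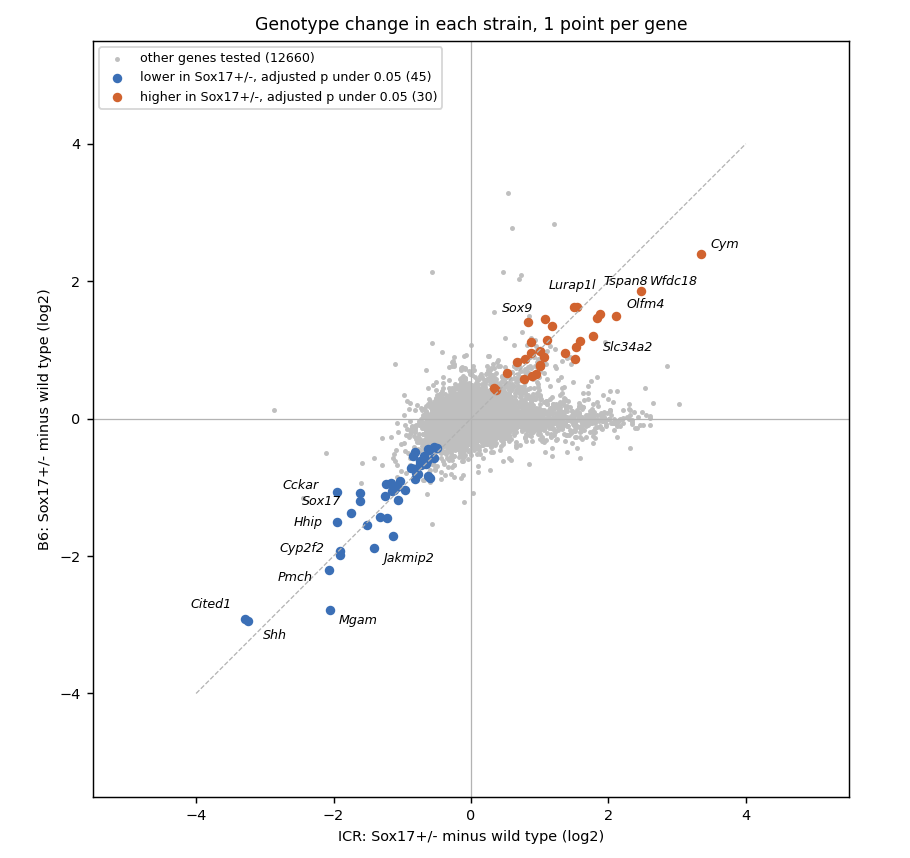
Sox17+/- minus wild type in ICR (horizontal) against B6 (vertical), in log2 units, 1 point per gene, with the 45 lower and 30 higher genes in colour and equality as a dashed line. The coloured points lie near the dashed line, which follows in part from the single genotype effect of the fit and the rule for changed alike. A band of uncoloured genes stretches to the right with values near 0 in B6. Low values in ICR wild type replicate 1 move genes to the right, and its part in the band was not tested.

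Sox17 itself was lower in every Sox17+/- sample. The log2 signal was 9.58 and 9.29 in ICR wild type, 7.69 and 7.94 in ICR Sox17+/-, 9.34 and 9.09 in B6 wild type and 8.07 and 7.95 in B6 Sox17+/- gallbladder. The groups did not overlap, and the Sox17+/- level was 37.6% of wild type (-1.41 log2, 95% interval -1.70 to -1.12, limma adjusted p = 0.00375). A second Sox17 probe set, whose name marks possible cross-hybridization, stood at -1.53 (SE 0.14). Of 6 SoxF and Cited factors Sox17 and Cited1 fell and 0 rose, with a median of 0.39 log2. Sox17 passed in all 8 fits that left out a sample. None of the 12 measured genes nearest to Sox17 on chromosome 1 passed, and their changes ran from -0.42 (Pcmtd1) to 0.22 (Rb1cc1).

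Shh fell the same way in each strain. Its log2 signal was 11.76 and 11.74 in ICR wild type, 8.40 and 8.61 in ICR Sox17+/-, 12.29 and 12.31 in B6 wild type and 9.16 and 9.56 in B6 Sox17+/- gallbladder. All 4 wild type values lay above 11, and all 4 Sox17+/- values below 10. The fall was 8.52-fold (-3.09 log2, SE 0.11, limma adjusted p = 2.78e-05), the smallest p of any gene. It was -2.23 when both probe sets were averaged, the second of which is dim (mean 4.34) and gave -1.37. Hhip fell 3.31-fold (-1.73 log2, SE 0.16, limma adjusted p = 0.00375). It stood at 8.27 and 8.51 in ICR wild type, 6.58 and 6.30 in ICR Sox17+/-, 8.35 and 8.22 in B6 wild type and 6.50 and 7.05 in B6 Sox17+/- samples. Each of the 3 other probe sets of Hhip was lower too, by -1.02 to -1.53.

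The rest of the Hedgehog genes moved less. Of 8 genes for ligands and their release, 1 fell and 0 rose, with a median of -0.14 log2, and of 11 receptors, effectors and targets 1 fell and 0 rose, with a median of -0.05, beside a median of 0.00 over all genes. The sister ligand Ihh stood at -0.82 (SE 0.19) and the acyltransferase Hhat, which lipidates the ligands, at -0.38 (SE 0.12). The receptor Ptch1 stood at -0.49 (SE 0.17) and the effector Gli1 at -0.48 (SE 0.17), each larger in ICR (-0.82 and -0.86) than in B6 (-0.17 and -0.10). None of these 4 passed (limma adjusted p of 0.157 to 0.391).

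Cited1 showed the largest fall. Its log2 signal was 10.85 and 10.97 in ICR wild type, 7.54 and 7.71 in ICR Sox17+/-, 10.74 and 10.69 in B6 wild type and 7.46 and 8.13 in B6 Sox17+/- gallbladder. The lowest wild type value was 10.69 and the highest Sox17+/- value 8.13, and the fall was 8.62-fold (-3.11 log2, 95% interval -3.45 to -2.76, limma adjusted p = 0.000178). Its relative Cited2 stood at 0.43 and did not pass. Igfbp2 encodes a secreted protein that holds insulin-like growth factors. It fell 2.61-fold, from 10.24 and 10.07 to 9.06 and 8.58 in ICR and from 10.07 and 10.21 to 8.57 and 8.84 in B6 (-1.38 log2, SE 0.12, limma adjusted p = 0.00375). It was the sole gene called of 16 in the insulin-like growth factor system, whose median was -0.06.

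**Figure D3:**
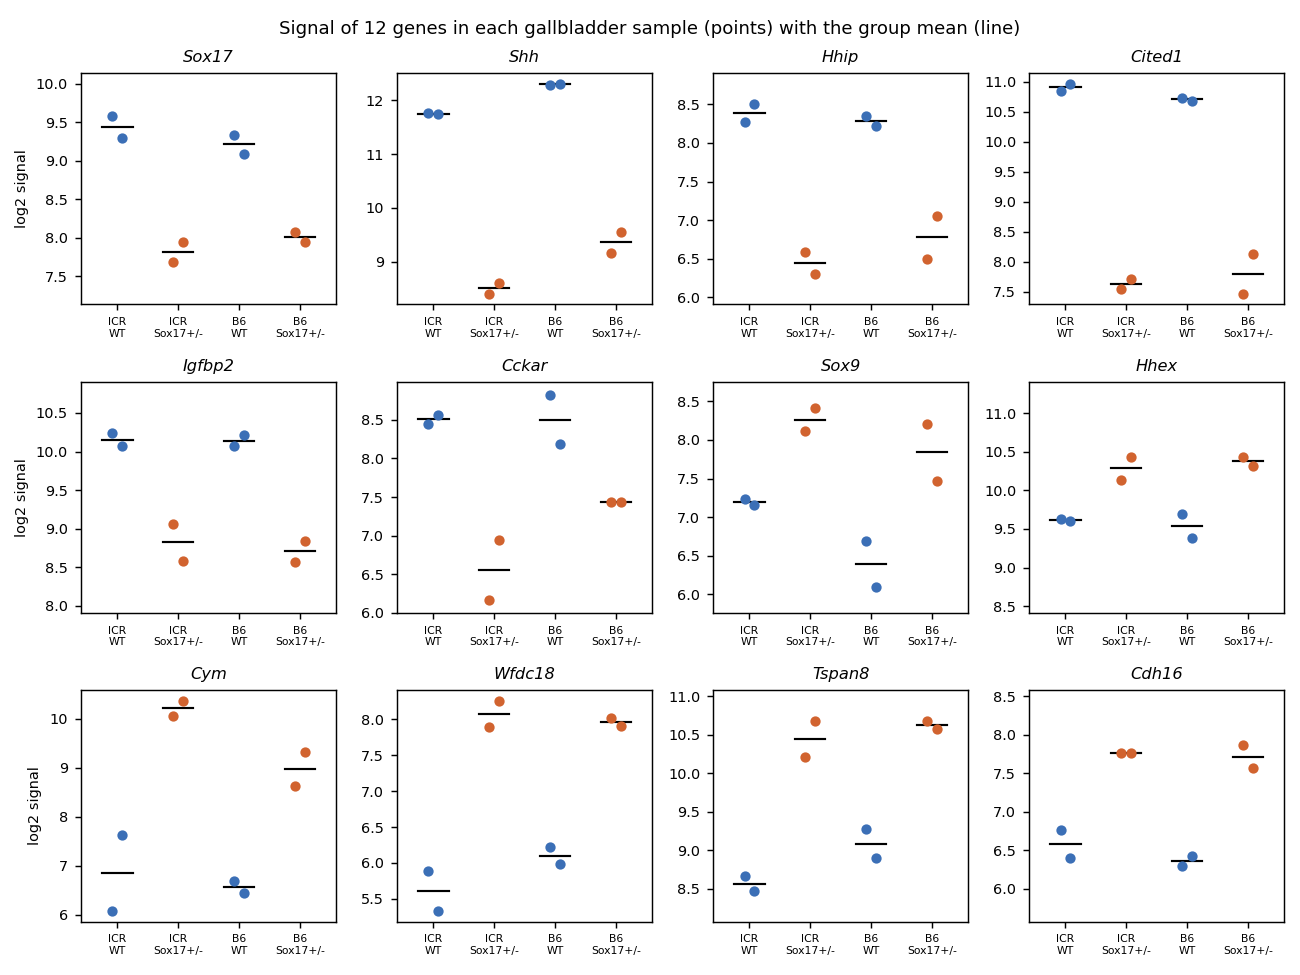
Log2 signal of 12 genes in each of the 8 gallbladder samples (points), by strain and genotype, with the mean of each pair (line). In the 6 genes that fell and the 6 that rose, the 4 Sox17+/- points and the 4 wild type points do not overlap. All 12 were drawn from the genes that passed. Axes differ between panels and do not start at 0.

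Pmch encodes the precursor of melanin-concentrating hormone. It stood at 6.12 and 6.76 in ICR wild type, 4.28 and 4.46 in ICR Sox17+/-, 7.21 and 6.26 in B6 wild type and 4.61 and 4.44 in B6 Sox17+/- samples (-2.14 log2, SE 0.22, limma adjusted p = 0.00674). Its Sox17+/- mean of 4.45 lay under the filter level of 5.26. Npb, which encodes neuropeptide B, fell 2.51-fold (-1.33 log2, SE 0.16). The brush border enzyme gene Mgam (maltase-glucoamylase) fell 5.34-fold, with wild type values of 7.11 to 8.28 and Sox17+/- values of 4.68 to 5.81. The cytochrome P450 genes Cyp2f2 (-1.95 log2, SE 0.12) and Cyp4x1 (-1.42, SE 0.19) fell, as did S100g, a calcium-binding protein of intestinal epithelium (-1.92, SE 0.19), and Jakmip2 (-1.65, SE 0.14). The Sox17+/- means of these 4 lay under the filter level, at 4.92, 4.64, 4.78 and 4.44. Cox7a1, a cytochrome oxidase subunit of muscle, fell 2.95-fold (-1.56, SE 0.12). Adamdec1, a secreted metalloprotease, fell 2.89-fold (-1.53, SE 0.18). Nr0b2, the orphan nuclear receptor SHP that represses bile acid synthesis, fell 2.00-fold (SE 0.12 log2), with wild type values of 7.09 to 7.54 and Sox17+/- values of 6.02 to 6.36.

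Of the genes fixed for contraction and motility, Cckar and Myh11 fell. Cckar, the cholecystokinin receptor that drives emptying, stood at 8.45 and 8.57 in ICR wild type, 6.17 and 6.94 in ICR Sox17+/-, 8.82 and 8.19 in B6 wild type and 7.44 and 7.44 in B6 Sox17+/- samples. The genotypes did not overlap, and it fell 2.85-fold (-1.51 log2, SE 0.24, limma adjusted p = 0.0467; adjusted p = 0.0695 with the replicate block). Myh11, the smooth muscle myosin, fell 1.54-fold (-0.62, SE 0.10, limma adjusted p = 0.0475; adjusted p = 0.0738 with the replicate block), and its other probe set gave 0.11 (SE 0.12). Of 19 contractile genes of smooth muscle 1 passed, which fell, with a median of -0.16 log2, and 7 lay above 0. In 8 of the 19 both Sox17+/- samples lay below both wild type samples in each strain, against 6.53% of all genes. An unadjusted p under 0.05 (limma) was seen in 9, against 10.3% of all genes. The actin-binding Cald1 stood at -0.29 (SE 0.056) and Acta2 at -0.24 (SE 0.062), and neither passed. Of 10 motility receptors and calcium signalling genes 1 fell, with a median of -0.12. Each of Cckar and Myh11 passed in 1 of the 8 fits that left out a sample.

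Several genes of signalling and cell surface fell by less. They were Fzd7, a Wnt receptor (-0.70, SE 0.065, limma adjusted p = 0.00428), Bmper, which binds BMP ligands (-0.56, SE 0.086), Tnfaip3, the inhibitor of NF-kB signalling also called A20 (-0.77, SE 0.098), and Nrp2, a receptor of semaphorins and VEGF (-0.48, SE 0.074). Of 30 Wnt genes 1 fell and 0 rose (median -0.02), of 21 BMP and activin genes 1 fell (median -0.07), and of 15 inflammation genes 1 fell (median 0.02). Bmp5 stood at -0.62 (SE 0.10, limma adjusted p = 0.0545), just outside the threshold. Averaging probe sets gave -0.55 for Fzd7 (limma adjusted p = 0.0756), -0.47 for Tnfaip3 (limma adjusted p = 0.0598) and -0.27 for Nrp2 (limma adjusted p = 0.406). Larger falls were those of Rnd2, a small GTPase (-1.19), the ceramide synthase gene Cers6 (-1.10), the formin Fmn2, an actin nucleator (-1.08), and Spsb4, a ubiquitin ligase adaptor (-1.05). Each of these 4 passed in all 8 fits that left out a sample.

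The other genes that fell were Slc35g1 (-1.35), the pituitary membrane glycoprotein gene Igsf1 (-1.12), the lipid transfer protein gene Esyt3 (-1.10), Frmd5 (-1.04), the riboflavin transporter Slc52a3 (-0.97), the formin Fhod3 (-0.80) and Pgbd5 (-0.80). The potassium channel Kcnd3 (-0.79), the glutathione transferase Gstm7 (-0.73), the malic enzyme Me3 (-0.73), the peptide hormone gene Enho (-0.70), the adhesion gene Ntm (-0.70) and Urah (-0.68) followed. Ppp2r2b, a phosphatase subunit (-0.66), the forkhead factor Foxq1 (-0.65), the interferon-induced Ifitm3 (-0.61), the matrix protein gene Thbs4 (-0.53), Tmem50b (-0.53) and the ubiquitin ligase Rnf145 (-0.46) had the smaller changes, and D930028M14Rik stood at -0.84. The last to pass was Me3 (limma adjusted p = 0.0496), and the next genes outside were Tmeff1 (0.0513) and Chn1 (0.0516).

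Cym, which encodes the milk-clotting stomach protease chymosin, rose 7.35-fold. Its log2 signal was 6.08 and 7.64 in ICR wild type, 10.06 and 10.37 in ICR Sox17+/-, 6.70 and 6.45 in B6 wild type and 8.63 and 9.32 in B6 Sox17+/- gallbladder. The ICR wild type pair lay far apart, yet below every Sox17+/- sample (2.88 log2, 95% interval 2.06 to 3.70, limma adjusted p = 0.0154). Wfdc18, a small secreted protein of the protease inhibitor type, rose 4.49-fold, from 5.89 and 5.33 to 7.89 and 8.26 in ICR and from 6.22 and 5.98 to 8.02 and 7.91 in B6 (limma adjusted p = 0.00314). Spink4, a secreted protease inhibitor of mucosa, rose 2.99-fold (1.58 log2, SE 0.22). Olfm4, a secreted glycoprotein of intestinal crypts, rose 3.49-fold (1.80, SE 0.24, limma adjusted p = 0.0222; adjusted p = 0.064 with the replicate block).

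Few members of the stomach, gut and mucosal lists passed. Of 8 measured stomach genes Cym alone passed, 4 lay above 0 and the median was 0.01 log2. Below the filter level lay 10 of the 19 listed genes. Tff2, a trefoil peptide of gastric mucus, stood at 0.51 (SE 0.089, limma adjusted p = 0.0575). Of 4 intestinal epithelium genes Olfm4 alone passed (median 0.64), with 11 of 15 below the filter level. Above 0 lay 3 of the 4, among them Tff3 (0.75, SE 0.17) and Fabp1 (0.53, SE 0.17). Of 6 pancreas genes 0 passed. Of 11 secreted inhibitors and defence genes 2 passed (Wfdc18 and Spink4), with a median of 0.37, while 0.589% of all genes passed. Above 0 lay 10 of the 11, against 49% of all genes.

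Among genes of epithelial surface and adhesion, Tspan8, Cdh16, Cdh6 and Cldn8 rose, while the lists that hold them had medians near 0. The tetraspanin Tspan8 rose 3.26-fold, from 8.66 and 8.47 to 10.21 and 10.68 in ICR and from 9.27 and 8.90 to 10.68 and 10.57 in B6 (1.71 log2, SE 0.14, limma adjusted p = 0.00297). All 4 other probe sets of Tspan8 were higher too, by 0.65 to 1.59. Cdh16, a cadherin of kidney epithelium, rose 2.41-fold, from 6.76 and 6.40 to 7.76 and 7.76 in ICR and from 6.29 and 6.43 to 7.86 and 7.57 in B6 (1.27, SE 0.11, limma adjusted p = 0.00375). The cadherin Cdh6 rose 1.99-fold (0.99, SE 0.13) and the tight junction claudin Cldn8 3.13-fold (1.65, SE 0.23). Of 26 claudins, cadherins and adhesion genes 3 rose and 0 fell, with a median of -0.03. Of 18 biliary epithelium genes 2 rose (Tspan8 and Cdh6), with a median of -0.02. Over all genes 0.236% rose. Cdh6 is in both lists, which were chosen with earlier results of these data known, so these counts are a description. Of the 8 epithelial markers read for the tissue 0 passed, with changes from -0.40 (Cldn7, SE 0.11) to 1.26 (Krt8, SE 0.59). Lurap1l rose 2.95-fold in a narrow range, with wild type values of 8.06 to 8.18 and Sox17+/- values of 9.49 to 9.79 (1.56, SE 0.086, limma adjusted p = 0.000326). Averaged over its probe sets it stood at 0.85 (limma adjusted p = 0.0165).

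Among endoderm factors, Sox9, a marker of biliary and pancreatic progenitors, and Hhex, which is needed for liver and bile duct formation, rose. Sox9 stood at 7.23 and 7.15 in ICR wild type, 8.11 and 8.42 in ICR Sox17+/-, 6.69 and 6.09 in B6 wild type and 8.21 and 7.47 in B6 Sox17+/- samples (1.27 log2, SE 0.20, limma adjusted p = 0.0433). It passed in 1 of the 8 fits that left out a sample, and averaged over its probe sets it stood at 0.75 (limma adjusted p = 0.0507). Hhex stood at 9.63 and 9.61 in ICR wild type, 10.14 and 10.44 in ICR Sox17+/-, 9.70 and 9.38 in B6 wild type and 10.44 and 10.32 in B6 Sox17+/- samples (0.75, SE 0.10, limma adjusted p = 0.0215). The genotypes did not overlap for either gene. Of 16 foregut endoderm and biliary factors 2 rose and 0 fell, with a median of 0.22 log2, while 0.236% of all genes rose. Above 0 lay 14 of the 16, against 49.0% of all genes. The forkhead factor Foxa3 stood at 0.64 (SE 0.14) and did not pass. Mycn, a growth-promoting factor of progenitor cells, rose 1.60-fold (0.67, SE 0.091), but 0.31 when its probe sets were averaged (limma adjusted p = 0.174).

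Slc34a2, a sodium-phosphate cotransporter, rose 2.79-fold (1.48 log2, SE 0.17), the glucose transporter Slc2a3 2.17-fold (1.12, SE 0.16), the amino acid transporter Slc7a13 2.25-fold (1.17, SE 0.17) and the calcium-activated potassium channel Kcnn4 1.96-fold (0.97, SE 0.12). Of 13 genes of biliary transport and secretion 0 passed, with a median of 0.28, and the phospholipid transporter Abcb4 stood at 0.74 (SE 0.15, limma adjusted p = 0.0862). Reln, the matrix protein reelin, rose 2.57-fold (1.36, SE 0.22; adjusted p = 0.0714 with the replicate block, limma) and 0.66 when its probe sets were averaged. Ces1d, a carboxylesterase of liver, rose 2.44-fold (1.28, SE 0.20; adjusted p = 0.0527 with the replicate block, limma). Complement factor I (Cfi) rose 2.28-fold, the chaperone clusterin (Clu) 2.18-fold and the metallothionein Mt2 1.88-fold. The remaining rises were those of the lipase relative Pnliprp1 (1.0), the pantetheinase Vnn1 (0.89), Scara3 (0.89), the phospholipase Pld1 (0.83), the metalloprotease Adamts16 (0.80), Akr1c19 (0.76), the growth factor Pdgfc (0.39), the lipoprotein lipase Lpl (0.39) and 9130008F23Rik (0.59).

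Markers of neighbouring tissues differed between the samples as well, and their part in these results was not tested. Of 19 hepatocyte genes 0 passed and 18 lay above 0, against 49% of all genes. Their median was 1.33 log2 in ICR and 0.17 in B6. Their summed signal was 15.31 and 14.93 log2 in ICR wild type, 16.21 and 15.87 in ICR Sox17+/-, 16.12 and 15.67 in B6 wild type and 15.98 and 16.03 in B6 Sox17+/- samples. It separated the genotypes in ICR and overlapped in B6. The changes of Ces1d, Cfi and Clu were 1.53, 1.51 and 1.11 in ICR and 1.04, 0.87 and 1.14 in B6, and none of these 3 passed with the replicate block (limma adjusted p of 0.0527, 0.102 and 0.0527). Of 13 erythroid genes 0 passed and all 13 lay above 0 (median 0.84), with summed signals of 11.65 to 13.07 in wild type and 12.17 to 13.94 in Sox17+/- samples. Of 9 skeletal muscle genes 0 passed and 8 lay above 0 (median 1.36), with summed signals of 9.28 to 9.50 in wild type, 9.56 to 10.04 in 3 Sox17+/- samples and 12.64 in B6 Sox17+/- replicate 3. Their median was 0.43 without that sample and ICR wild type replicate 1. Of 16 endothelium genes 0 passed (median 0.09), with summed signals that overlapped in both strains.

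**Figure D4:**
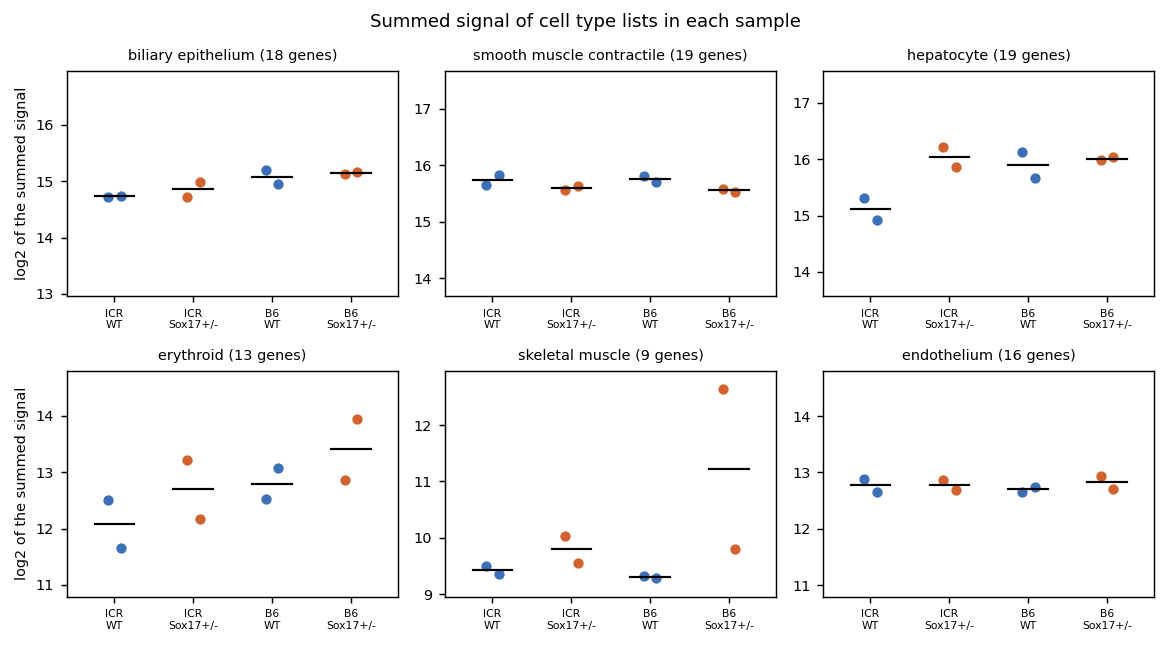
Log2 of the summed signal of 6 cell type lists in each sample (points), by strain and genotype, with the mean of each pair (line). The endothelium list lies between 12.66 and 12.94 in all samples. The smooth muscle list lies between 15.65 and 15.83 in wild type and between 15.53 and 15.63 in Sox17+/- samples. The skeletal muscle list is highest in B6 Sox17+/- replicate 3 at 12.64. Axes differ and do not start at 0.

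In the other lists 0 genes passed. They were Notch (20 genes tested, median 0.03), FGF and Sprouty (16, median 0.17), visceral mesenchyme factors (17, median 0.00), Hox genes (15, median 0.03), collagens (19, median -0.10), non-collagen matrix (28, median -0.02), fibroblast and stromal genes (17, median 0.06), leukocyte (18, median 0.04), neural crest and neuron (9, median 0.17), mesothelium and retinoid enzymes (14, median 0.08), cell cycle (23, median 0.04) and immediate early and heat shock genes (19, median 0.11). The nearest to the threshold among them were the Notch target Hey1 (-0.46, SE 0.087, limma adjusted p = 0.0814) and the collagen chain Col11a1 (-0.49, SE 0.095, limma adjusted p = 0.0846). The proliferation marker Mki67 stood at 0.21 (SE 0.070). The lists were chosen with earlier results of these data known, so their counts are a description.

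For 35 of the 75 genes the array has at least 1 further probe set, 59 in all. Of the 32 that lay above the filter level, 28 changed in the direction of the probe set read. An unadjusted p under 0.05 (limma) was seen in 22 of them, and in 10.3% of all genes, read by 1 probe set each. They read the same genes in the same samples on which the 75 were chosen by p. Agreement is thus a description and no independent support. The 4 with the other sign were those of Adamts16 (-0.01), Gstm7 (0.02), Myh11 (0.11) and Urah (0.20). Of the 27 dimmer probe sets 22 had the same sign. When all probe sets of a gene were averaged, 54 of the 73 called genes still tested passed and 19 did not. Those 19 were Adamts16 (0.40), Clu (0.95), Enho (-0.33), Fzd7, Gstm7 (-0.35), Kcnd3 (-0.22), Kcnn4 (0.84), Lpl (0.31), Mycn, Myh11 (-0.26), Nrp2, Ntm (-0.52), Pdgfc (0.70), Pld1 (0.51), Ppp2r2b (-0.41), Slc2a3 (0.58), Sox9, Tnfaip3 and Urah (-0.24).

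The calls depended on single samples more than the changes did. Leaving out a sample moved no change of the 75 genes outside 0.82 to 1.14 of its value, and none changed sign. The number called rose to 88 when ICR wild type replicate 1 was dropped and fell to 36 when replicate 2 of that group was. It was 48 and 41 when ICR Sox17+/- replicates 1 and 2 were dropped in turn. For B6 the counts were 35 (wild type replicate 3), 25 (wild type replicate 4), 28 (Sox17+/- replicate 3) and 44 (Sox17+/- replicate 4). Each of these fits has a group with a lone sample, taken to be as variable as the rest. In every such fit that tested them 21 genes passed, 17 lower and 4 higher. The lower ones were Sox17, Shh, Cited1, Hhip, Igfbp2, Pmch, Cyp2f2, S100g, Jakmip2, Cox7a1, Slc35g1, Rnd2, Cers6, Fmn2, Spsb4, Fzd7 and D930028M14Rik, and the higher ones Wfdc18, Tspan8, Lurap1l and Cdh16. Jakmip2 lay above the filter level in only 4 of the 8 fits. The Sox17+/- means of Jakmip2, Pmch, Cyp2f2 and S100g lay under that level in the main fit. Cym and Olfm4 passed in 4 of 8, Spink4 in 2 and Hhex in 2. None of the 8 called Enho, Foxq1, Me3, Nrp2, Pgbd5, Thbs4 or Tmem50b. Without both samples that stood apart, ICR wild type replicate 1 and B6 Sox17+/- replicate 3, 54 genes passed, 31 lower and 23 higher, 38 of them among the 75.

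**Figure D5:**
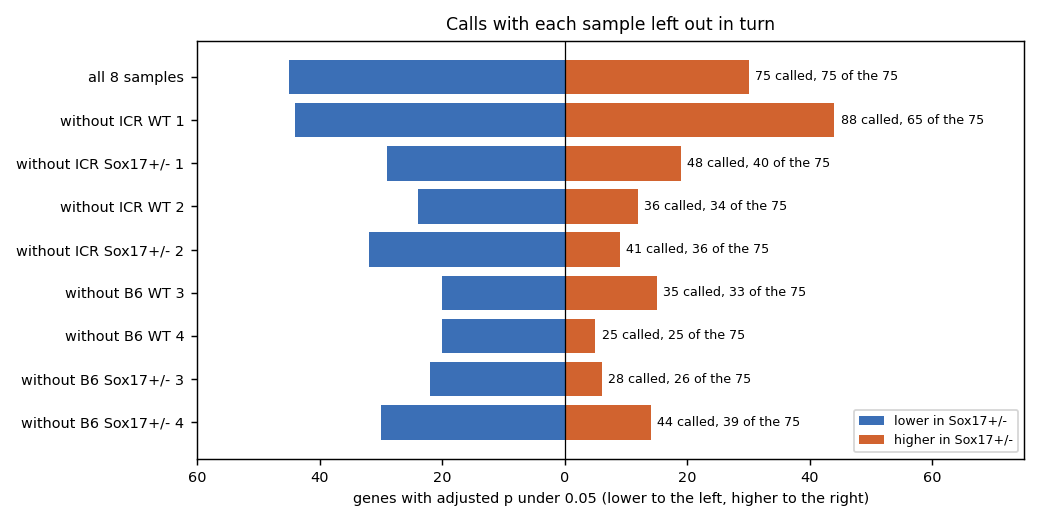
Number of genes called lower (left) and higher (right) in Sox17+/- gallbladder with all 8 samples and with each left out in turn, beside the number that are among the 75. The count is highest at 88 without ICR wild type replicate 1 and lowest at 25 without B6 wild type replicate 4.

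When replicate number entered the fit as a block, the number called was 54, with 46 of the 75 among them. The 29 that did not had an adjusted p of 0.0521 to 0.102 (limma), with the same changes. Beside those named above they were Adamts16, Akr1c19, Bmper, Cfi, Clu, Enho, Esyt3, Foxq1, Gstm7, Ifitm3, Lpl, Mt2, Nrp2, Pdgfc, Pgbd5, Pld1, Pnliprp1, Rnf145, Scara3, Slc2a3, Slc7a13, Thbs4, Tmem50b and 9130008F23Rik.

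The promoters of the 75 genes were read for the core that SOX proteins bind and for the site of the Gli factors. RefSeq promoters (GRCm38.p6, 250 bases before to 50 after a transcript start) were found for 48 of the 75 genes, 60 promoters in all. The core ACAAT, or ATTGT on the other strand, was present in 12 of these (20%), against 20.5% of 13111 promoters of the genes tested. It was present in 9 of 42 promoters of genes that fell (21.4%) and in 3 of 18 of genes that rose (16.7%). The Gli site TGGGTGGTC, or GACCACCCA on the other strand, was in 0 of the 60 and in 0.183% of promoters of the genes tested. A match is a description, and no match says only that these letters are not in this window. The 250 bases before the start are given here for 2 genes that fell and 2 that rose, all in the strand of the gene, with matches in capitals. Cited1 lies at chrX:102252182-102252431 (minus strand, the most upstream of 3 starts), Hhip at chr8:80058009-80058258 (minus), Cym at chr3:107221733-107221982 (minus) and Wfdc18 at chr11:83708754-83709003 (plus).
Cited1: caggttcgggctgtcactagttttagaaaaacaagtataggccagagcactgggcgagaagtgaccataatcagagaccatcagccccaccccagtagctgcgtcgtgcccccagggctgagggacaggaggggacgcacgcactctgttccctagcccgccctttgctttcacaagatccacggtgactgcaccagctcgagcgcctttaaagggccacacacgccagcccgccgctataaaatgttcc
Hhip: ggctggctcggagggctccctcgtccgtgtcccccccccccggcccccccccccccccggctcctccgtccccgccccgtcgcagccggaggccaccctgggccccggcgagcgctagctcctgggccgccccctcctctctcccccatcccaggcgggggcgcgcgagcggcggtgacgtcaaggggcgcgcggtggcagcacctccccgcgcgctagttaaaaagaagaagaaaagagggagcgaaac
Cym: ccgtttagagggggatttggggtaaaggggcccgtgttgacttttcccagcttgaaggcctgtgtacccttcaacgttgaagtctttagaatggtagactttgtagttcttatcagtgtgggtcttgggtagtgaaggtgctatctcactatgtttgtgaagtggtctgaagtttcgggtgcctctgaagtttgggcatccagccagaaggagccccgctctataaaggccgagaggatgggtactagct
Wfdc18: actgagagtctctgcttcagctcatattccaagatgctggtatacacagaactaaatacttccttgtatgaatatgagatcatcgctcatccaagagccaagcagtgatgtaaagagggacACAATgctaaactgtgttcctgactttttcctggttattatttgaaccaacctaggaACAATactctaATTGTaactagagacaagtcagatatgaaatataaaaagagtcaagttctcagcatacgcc
Only the Wfdc18 stretch among these 4 holds the SOX core, 3 times, at 129, 72 and 61 bases before the start. These 4 genes are examples and do not stand for the largest changes. Of the other genes that fell by more than Hhip, Mgam, Pmch and S100g hold the core in a promoter and Cyp2f2 does not. No promoter was found for Shh, nor for Sox17. The share over the promoters found was near that of the genes tested.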

How the data were processed

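Gallbladders of 8 mouse embryo samples were compared, 4 per genotype, with groups read from titles and label fields. The labels swap the tags for stage and genotype, and the values under them were used. Per the labels, Trizol was used to extract total RNA, which was turned into biotinylated cRNA for Affymetrix arrays. The authors deposited log2 signals per probe set. How background and scale were handled is not given in the sources used here. As deposited, sample medians ran from 5.51 to 6.07. No column of other samples was present (0).

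The 8 samples were quantile normalized. Of 45101 probe sets, 64 were controls, 34945 had 1 gene in the platform table, 932 several and 9160 none listed. Symbols were updated through Entrez identifiers for 34741. Each of 18193 genes was read by its probe set with the highest mean (names in _x_at only where no other was present), and genes under the 30th percentile of mean signal (5.26 log2) were left out, leaving 12735. The linear model held strain and genotype. It was run with limma 3.58.1 under R 4.3.3, with eBayes and its trend option (5 residual degrees of freedom, 8.06 with the prior). P-values were adjusted by Benjamini-Hochberg over all genes, with a threshold of 0.05. The strain difference was tested with a mean per strain and genotype. The steps were tested on simulated data. The number of arrays limits the precision.

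Members and the 33 gene lists (669 genes, 498 tested) were chosen with earlier results of these data known. Named genes were Sox17, the 12 largest changes per direction among genes changed alike, and up to 3 per list by p, and other called genes were named once with their change. A further few are named where a count of 5 or fewer or the place at the threshold called for it. Summed list signals add the linear signals of a list's genes.

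Replicate numbers 1 to 4 occur in both genotypes. Deviations of same-numbered samples from their group means correlated at 0.39 in ICR and 0.23 in B6, both above 0.1, so a fit with the replicate number as a block is given where it changed a call. The labels do not say what a number shares, and each strain gives only 1 independent correlation. Alternatives were the values as deposited, median centring, other filters, probe set rules and variance settings, array weights, other models, all 10 samples and leaving out each sample. Leaving out both samples that stood apart was chosen after seeing the data.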

Additional observations from a re-analysis of the deposited data

Results flagged for a closer look

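Within the 4 samples of a genotype, 264 groups of 4 values were examined for a sample far from the other 3, and 7 were found. Chance gives about 1 in 20 for 4 values of 1 kind, so 7 of 264 is no more than that rate. The groups mix ICR and B6 samples, so the rate is only a guide. Cers6 stood at 7.81 in ICR Sox17+/- replicate 1 against 8.08 to 8.09 in the other Sox17+/- samples, and Enho at 7.75 in the same sample against 7.32 to 7.36. Nr0b2 stood at 6.02 in B6 Sox17+/- replicate 4 against 6.31 to 6.36, and Tmem50b at 8.97 in ICR Sox17+/- replicate 2 against 8.71 to 8.74. Each of these 4 values still lay below those of all wild type samples. Among genes that did not pass, the carbonic anhydrase Car2 stood at 10.58 in ICR wild type replicate 2 against 11.60 to 11.69, the collagen chain Col4a1 at 11.73 in B6 Sox17+/- replicate 4 against 11.88 to 11.90, and the macrophage receptor Mrc1 at 10.06 in B6 wild type replicate 3 against 10.27 to 10.31.

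Probe sets with no single gene in the platform table were left out of the gene counts. Tested together with all others above the filter level, 5 of 3163 such probe sets passed (limma), against 83 of all 25045 probe sets tested. They were thus no more frequent than among probe sets in general. Those with no gene listed changed by 1.09 and -1.70 log2, and those that list several genes by -0.84, -0.83 and -0.97.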

How the results depend on the processing

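The count of 75 genes, all changed alike, stayed within 1.5 times with the values as deposited (82 called, 63 of the 75), median centring (71), no filter, the mean of probe sets, single probe sets tested separately, no trend, robust variances (101) and a mean per group. It was 42 and 42 alike with a filter at the 50th percentile, which tests fewer genes, 151 and 139 alike with array weights, 41 and 41 alike without the strain block, and 7 and 7 alike with all 10 samples, a fit whose variance takes in cystic duct. With the replicate block 54 passed and 53 were changed alike. Leaving out a sample gave 25 to 88 called and 25 to 87 changed alike. Genes whose effect differed between strains numbered 0 to 559 when a sample was left out, and 1 without both samples that stood apart. Sox17 stood at -1.40 with all 10 samples and did not pass there (limma adjusted p = 0.0563). The causes were not tested beyond what each setting's construction shows. None of the 75 changed sign in any alternative, and 7 passed in all of them that tested them (Shh, Cited1, Hhip, Igfbp2, Pmch, Wfdc18 and Lurap1l). Apart from the fits that left out 1 sample, Pmch was tested in 11 alternatives and Wfdc18 in 12, against 13 for Shh. The Sox17+/- mean of Pmch lay under the filter level. Of 57 other genes followed, 1 reversed: the receptor Ret, at -0.69 (SE 0.23), stood at 0.15 with all 10 samples. The values as deposited moved the median of all genes to -0.08. The 2 samples per strain and genotype limit what small changes can pass.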

Other observations

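Genes just outside the threshold included Ctse, Gpx2, Adgrg6 and Il1r1, beside Tmeff1, Chn1, Tmem45b and Bmp5 named above. Whether they make a set of stomach or gut genes was not tested. The stomach list holds none of them, and its 8 measured genes of 19 had a median of 0.01 log2. Ctse, which encodes the stomach protease cathepsin E, stood at 1.14 log2 (SE 0.19, limma adjusted p = 0.055), with 1.40 in ICR and 0.88 in B6. Gpx2, a glutathione peroxidase of gut epithelium, stood at 0.65 (SE 0.11, limma adjusted p = 0.0545), with 0.71 in ICR and 0.59 in B6. The adhesion receptor Adgrg6 stood at 0.89 (SE 0.15) and the interleukin receptor Il1r1 at 0.44 (SE 0.075), with limma adjusted p of 0.0552 and 0.0557. In each of these 4 genes both Sox17+/- samples lay above both wild type samples in both strains, and none passed. They were chosen after their values were seen.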
